A study of Mus musculus with 14 samples.

Results

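Oxidative phosphorylation was examined in mouse liver through the genes of its 5 enzyme complexes. Members were all probe sets that the array annotation assigns to a single gene whose symbol begins with Nduf (complex I), Sdh followed by a, b, c or d (complex II), Uqcr (complex III), Cox4 to Cox8 (complex IV) or Atp5 (complex V). This rule found 73 genes measured by 100 probe sets, of 8252 genes and 10855 probe sets with 1 gene symbol. Complex I had 31 member genes, complex II 6, complex III 7, complex IV 15 and complex V 14. The rule also took in 4 assembly factors, which help to build a complex and are not part of it: Ndufaf1, Ndufaf4, Sdhaf1 and Sdhaf2.

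The study compared mice mutant for Pit-1 (Snell dwarf) with wild type controls. Pit-1 is a pituitary transcription factor, and without it the gland does not form the cells that secrete thyrotropin, growth hormone and prolactin. Total RNA of whole liver from 1 mouse was put on each of 14 Affymetrix arrays: wild type at 6 months (animals 82, 84, 86 and 88), dwarf at 6 months (83, 85, 87 and 89), wild type at 22 months (1, 2 and 24) and dwarf at 22 months (3, 4 and 8). The labels give no sex, strain background, zygosity or batch. Dwarf mice lack several pituitary hormones together, so an effect of one hormone cannot be told apart from that of another.

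The respiratory chain sits in the inner mitochondrial membrane. Complex I oxidises NADH and complex II oxidises succinate, and both pass electrons through ubiquinone to complex III, then through cytochrome c to complex IV, which reduces oxygen. Complexes I, III and IV pump protons, and complex V, the ATP synthase, uses the returning protons to make ATP. Most subunits are encoded in the nucleus and some in mitochondrial DNA; the symbols searched for the latter (mt-Nd, mt-Co, mt-Cyt and mt-Atp) matched no probe set of a single gene. Liver mitochondria carry the liver isoforms of several complex IV subunits, and thyroid hormone is known to act on respiratory genes in this tissue.

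Values are MAS5 signals on a linear scale, and the number of arrays limits their precision. Array medians were 186.85 to 221.05 in the 6-month dwarf mice and 166.8 to 187.1 in the other groups. A probe set was tested when its signal exceeded 184.8, the median of all values, on at least 3 arrays, and a gene was represented by its tested probe set with the highest mean. That gave 65 member genes of 5473 genes tested: 28 of complex I, 6 of complex II, 7 of complex III, 11 of complex IV and 13 of complex V. A gene was called higher or lower at an adjusted p under 0.05 in limma, with Benjamini-Hochberg adjustment over all 7227 probe sets tested. Below, a value with ± is a log2 change and its limma standard error unless a signal is named, and ranges are signals. Signals of different probe sets cannot be compared as levels.

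Some arrays stood apart from others of their group. When each gene was centred on its mean over the 14 arrays, the median of the 65 members was 0.27 (log2) in the 6-month dwarf 83, against -0.053 to 0.047 in the other 6-month dwarfs. In the 22-month dwarf 8 it was -0.124, against 0.155 and 0.126 in the other 22-month dwarfs. The mean log2 ratio of 3' to 5' signal of the Gapdh and beta-actin controls, which depends on how intact and how well labelled the RNA was, came to 0.517 to 1.13 on 7 of the 8 arrays of 6 months, -0.0412 for the 6-month wild type 88 and 0.0191 to 0.483 on the 6 arrays of 22 months. The value of 1.13 was that of dwarf 83, and 0.0191 was that of dwarf 8. At 6 months the ratios were 0.794 to 1.13 in dwarf and -0.0412 to 1.02 in wild type mice. At 22 months they were 0.0191 to 0.303 in dwarf and 0.289 to 0.483 in wild type mice. Comparisons between ages, and between genotypes at each age, therefore also compare arrays of different 3' to 5' ratio. The part of this ratio in the member medians of single arrays was not tested. Hepatocyte markers were present, with a summed signal of 153343 to 255324 over 8 genes, and the 3 bile duct markers on the array (Epcam, Krt19 and Krt7) lay below the floor of 54.9 on every array.

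The members' spread within groups was compared with that of all genes, without matching on signal. The median within-group standard deviation was 0.23 (log2) over the 65 members and 0.30 over all 5473 genes. It was lowest for Cox7a2l, a factor that joins complexes III and IV, at 0.11, and highest for Cox6b1, a complex IV subunit, at 0.60.

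Dwarf and wild type mice of 6 months differed in 5 of the 65 members, and the complex II genes Sdha and Sdhd went in opposite directions. Sdha, the flavoprotein that oxidises succinate, was 1.49-fold lower in dwarf mice, and Sdhd, a membrane anchor of the same enzyme, was 1.41-fold higher. Lower signals were also called for 3 complex I genes: Ndufb3 and Ndufa8, accessory subunits, and the assembly factor Ndufaf1. So 1 member was higher and 4 were lower, where 6.3% of all genes tested were called higher and 7.09% lower. No member of complexes III, IV or V was called.

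For 5 of these genes and for Uqcr11, described below, the 140 bases just upstream of the gene start are printed to show the promoters of the members that were called. They come from RefSeq (GRCm38.p6), run 5′ to 3′ on the gene's strand and end at the base before the start. Capitals mark matches to the core motif of NRF-1 (GCGCANGCG) or of ETS factors such as GABPA (CCGGAAGT), searched on both strands. Both factors are known to bind promoters of nuclear respiratory genes.
Sdha (chr13:74350241-74350380, minus strand): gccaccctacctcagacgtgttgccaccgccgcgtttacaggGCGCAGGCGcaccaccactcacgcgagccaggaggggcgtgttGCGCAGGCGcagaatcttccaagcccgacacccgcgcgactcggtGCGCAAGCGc
Sdhd (chr9:50603850-50603989, minus strand): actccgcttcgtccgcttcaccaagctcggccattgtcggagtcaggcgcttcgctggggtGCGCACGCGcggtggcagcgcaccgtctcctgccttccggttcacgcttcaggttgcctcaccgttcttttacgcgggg
Ndufa8 (chr2:36049339-36049478, minus strand): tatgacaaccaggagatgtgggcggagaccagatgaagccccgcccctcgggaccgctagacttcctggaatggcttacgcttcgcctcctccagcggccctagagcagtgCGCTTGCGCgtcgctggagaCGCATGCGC
Ndufb3 (chr1:58586257-58586396, plus strand): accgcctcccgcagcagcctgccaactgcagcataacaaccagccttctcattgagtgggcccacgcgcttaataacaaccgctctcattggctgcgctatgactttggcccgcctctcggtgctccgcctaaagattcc
Ndufaf1 (chr2:119662835-119662974, minus strand): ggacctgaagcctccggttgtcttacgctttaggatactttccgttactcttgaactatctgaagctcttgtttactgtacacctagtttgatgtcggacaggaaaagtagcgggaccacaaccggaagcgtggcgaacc
Uqcr11 (chr10:80406822-80406961, minus strand): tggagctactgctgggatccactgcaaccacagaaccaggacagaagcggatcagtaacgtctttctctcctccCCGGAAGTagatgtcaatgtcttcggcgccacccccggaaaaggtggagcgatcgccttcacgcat
The Sdha stretch holds 3 NRF-1 matches, Ndufa8 holds 2 and Sdhd 1, while Uqcr11 holds 1 ETS match. The stretches of Ndufb3 and Ndufaf1 hold no match to either motif or to the YY1 motif AAGATGGCG. A match describes the letters alone and shows no binding.

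Over the full RefSeq windows of 300 bases (250 before and 50 after the start), 60 of the 73 members had an entry, as did 7 of the 8 members called in any comparison (not Uqcrc2). The NRF-1 motif was in 15 of the 60 (25%), against 15.19% of 4423 tested genes and 7.034% of all 27025 genes in the table. The YY1 motif was in 5 (8.333%), against 3.685% and 1.639%. The ETS motif was in 4 (6.667%), against 9.179% and 4.307%. Unlike the 4423 genes, the 60 members include untested ones. Of these, Atp5j2 and Ndufs4 held the YY1 motif and Cox8a the ETS motif, so the shares are of unlike sets. Of the called members, Sdha, Sdhd, Ndufa8 and Uqcr11 had an NRF-1 match in the full window, and Ndufa7, with 2 windows, had no match to the 3 motifs. The Uqcr11 match lies outside the printed stretch. Sdhd, which was higher in 6-month dwarf mice, and Sdha and Ndufa8, which were lower, thus all held this motif.

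Sdha had signals of 1250.0, 1049.2, 1331.9 and 1209.5 in wild type mice of 6 months and of 897.0, 739.9, 753.8 and 862.8 in dwarf mice. All 4 dwarf values lay below the 4 wild type values. The change was -0.57 ± 0.12 (adjusted p = 0.00641; mean signal 813.4 ± 78.3 against 1210.2 ± 119, SD, n = 4 each).

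Sdhd had 5426.8, 5780.5, 5975.5 and 6413.9 in wild type and 8449.0, 7837.2, 9032.3 and 7949.0 in dwarf mice. Again the groups did not overlap, with the dwarf mice high. The change was 0.50 ± 0.12 (adjusted p = 0.0148). With every array set to a common median it was 0.30 and did not pass (adjusted p = 0.205). That scaling also moved the median of all genes from 0.09 to -0.11, and it gave 0 members higher and 6 lower in place of 1 and 4. Over all genes it gave 132 higher and 670 lower, in place of 345 and 388.

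Ndufb3 had 1555.3, 2018.4, 1744.4 and 1619.0 in wild type and 1294.6, 1307.0, 1163.7 and 1177.0 in dwarf mice. All dwarf mice were below all wild type mice, a change of -0.48 ± 0.12 (adjusted p = 0.0146). Ndufaf1 had 659.1, 567.0, 650.7 and 749.6 in wild type and 446.4, 542.5, 447.2 and 444.2 in dwarf mice. Its groups did not overlap either, and its change was -0.48 ± 0.14 (adjusted p = 0.032). Ndufa8 had 1475.2, 1129.0, 1022.7 and 1537.5 in wild type and 1064.4, 823.4, 840.2 and 706.8 in dwarf mice. Here dwarf 83 reached above the lowest wild type value, and the change was -0.58 ± 0.16 (adjusted p = 0.0284).

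The calls of Ndufa8 and Ndufaf1 were near the threshold. They were lost with the 3' to 5' ratio as a covariate (adjusted p = 0.11 and 0.102), with array weights (adjusted p = 0.0542 and 0.0621) and in a fit of the 2 compared groups alone (adjusted p = 0.0734 and 0.0956), where Ndufb3 was lost too (adjusted p = 0.0503). Leaving out 1 array ended the Ndufa8 call in 5 cases (82, 88, 85, 87 or 89; adjusted p = 0.0591 to 0.0831) and the Ndufaf1 call in 6 (82, 86, 88, 83, 87 or 89; adjusted p = 0.0549 to 0.0785). Sdha was called with each array left out. Without dwarf 83, 8 members were called, with Atp5md, Ndufb8, Ndufv2 and Ndufv3 added, all lower, and Ndufaf1 lost. Without wild type 88, dwarf 87 or dwarf 89, 3 members were called: Ndufb3, Sdha and Sdhd. The share of all genes called in fits with an array left out is not given here.

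**Figure D1:**
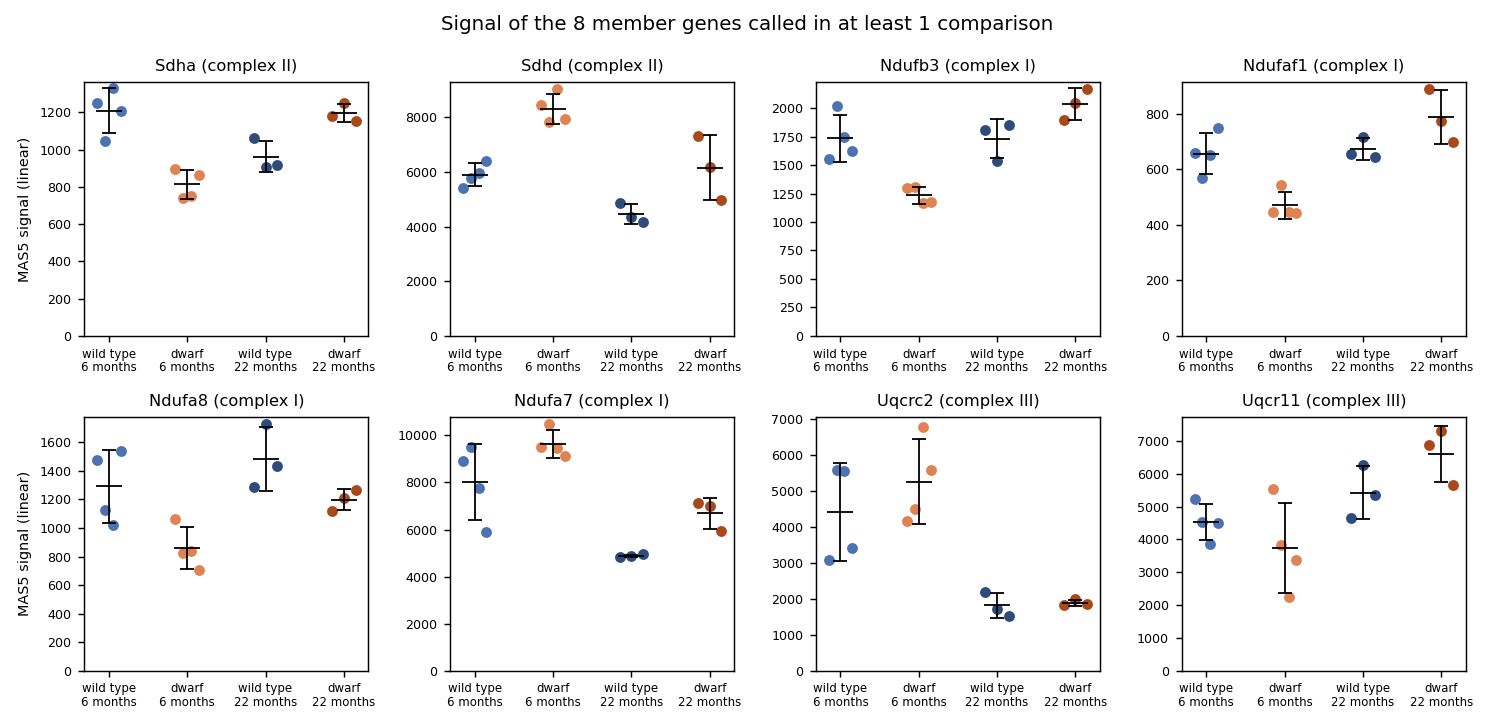
MAS5 signal (linear, y axis from 0) of the 8 member genes called in at least 1 comparison, by group on the x axis. Each point is 1 mouse, and bars are the group mean and SD (n = 4 at 6 months, n = 3 at 22 months). Sdha, Ndufb3, Ndufaf1, Ndufa8 and Uqcr11 have their lowest group mean in the 6-month dwarf mice, and Uqcrc2 is low in both 22-month groups.

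The other 25 tested genes of complex I were not called at 6 months. Over all 28, the 3 called ones included, 14 had a change above 0 and 14 below, with a median of 0.00. Ndufa1 and Ndufa6, accessory subunits, had the highest values at 0.41 ± 0.31 (adjusted p = 0.411) and 0.39 ± 0.17 (adjusted p = 0.139), and neither passed. The core subunits that carry the NADH site and electron centres were near 0 or uncalled: 0.28 ± 0.14 for Ndufv1 (adjusted p = 0.193), 0.13 ± 0.14 for Ndufs1 (adjusted p = 0.583) and -0.25 ± 0.13 for Ndufv2 (adjusted p = 0.209). Ndufb5, an accessory subunit and the brightest complex I probe set, was 7479.0 to 9058.4 in wild type and 8266.5 to 11673.3 in dwarf mice.

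Complexes III and IV had medians of 0.14 and 0.11, and complex V of 0.00, where the median of all genes was 0.09. In complex III, 6 of 7 genes were above 0, against 58.32% of all genes, and none passed. The exception was Uqcr11, a small accessory subunit, at -0.34 ± 0.21 (adjusted p = 0.293). Uqcrc1, core protein 1, had 7523.8 in dwarf 83 and 4495.0 to 4706.9 in the other 3 dwarf mice, against 4036.1 to 5204.3 in wild type mice.

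In complex IV, 10 of 11 genes were above 0, against 58.32% of all genes. The widest difference was in Cox6b1, a subunit near the cytochrome c site: 173.8, 177.0, 450.2 and 404.5 in wild type and 467.5, 642.9, 549.1 and 563.8 in dwarf mice. The groups did not overlap, but the wild type values were spread widely. The change of 1.01 ± 0.36 did not pass (adjusted p = 0.0777), except without wild type 86 (adjusted p = 0.0422). The probe set carries a suffix that marks sets chosen under relaxed rules.

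In complex V the lowest p was for Atp5md, a small subunit of the ATP synthase membrane part, at -0.45 ± 0.18 (adjusted p = 0.105). In 3 dwarf mice its values (5259.0 to 6534.9) lay below the wild type range of 7933.9 to 9657.9, and dwarf 83 was at 9521.0. Atp5o, which joins the catalytic head to the stalk, was at 0.36 ± 0.17 (adjusted p = 0.173).

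Differences over 1.5-fold were few at this age: 1 of the 65 members (1.538%) exceeded that size, against 21.3% of all genes tested. These shares were not matched on signal, and 57 members were still tested with a filter at the 75th percentile. Whether genes of similar signal differ from the members was not tested. Unadjusted p was under 0.05 for 10 members (15.38%) and for 29.31% of all genes. Markers of other cells also differed at 6 months. Of 4 endothelial markers tested 3 were higher in dwarf mice, and their summed signal over 6 genes was 2507.0 to 3051.5 against 1484.6 to 2072.0 in wild type mice. Of 6 B and plasma cell markers 3 were higher (sums of 2672.9 to 3197.3 against 1663.3 to 2516.0), and of 8 hepatocyte markers 5 were higher and 1 lower. Of 2 erythroid markers tested 1 was lower, Alas2 (-2.48 ± 0.20, adjusted p = 7.72e-07), while the sums over 3 erythroid genes overlapped, at 7880.7 to 13601.4 in dwarf and 9634.9 to 16736.6 in wild type mice. Their part in the member differences was not tested, and in whole liver fewer cells of a type and less RNA per cell cannot be told apart.

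**Figure D2:**
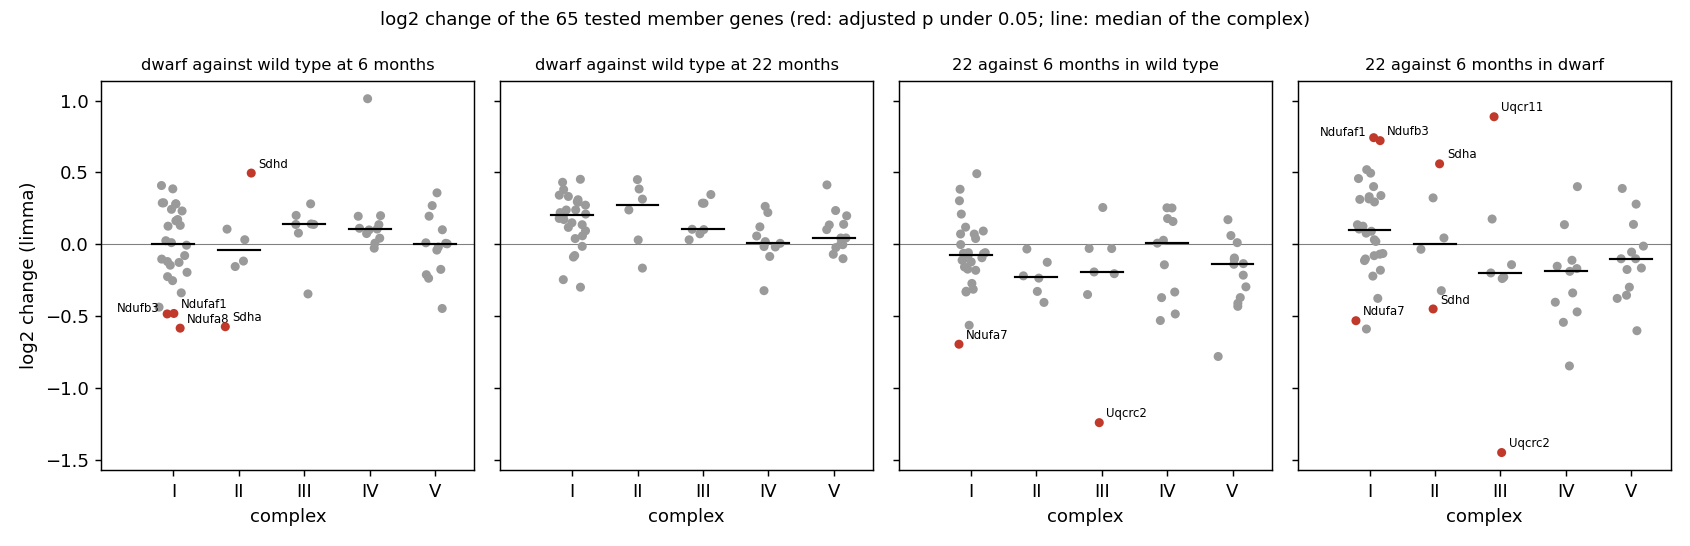
Log2 change from limma (y axis) of each of the 65 tested member genes, by complex (x axis), in 4 comparisons. Red points were called at an adjusted p under 0.05 and are named, grey points were not, and black lines are the medians of a complex. No point is red for dwarf against wild type at 22 months, where the medians of complexes I and II are 0.20 and 0.28.

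At 22 months no member differed between dwarf and wild type mice by the adjusted test. In this comparison 1.39% of all genes were called higher and 1.48% lower, and 6 members (9.231%) had an unadjusted p under 0.05, against 12.99% of all genes. The changes were small and mostly above 0: 51 of 65 members (78.46%) were higher in dwarf mice, against 50.41% of all genes, with medians of 0.14 for the members and 0.00 for all genes. By complex, 23 of 28 genes were above 0 in complex I, 5 of 6 in complex II, 7 of 7 in complex III, 7 of 11 in complex IV and 9 of 13 in complex V. The medians were 0.20, 0.28, 0.10, 0.01 and 0.04 in that order. These counts describe the 3 mice against 3 and carry no test, since member genes are not independent of each other.

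The pattern was not shared by all 3 dwarf mice. The member median was 0.155 in dwarf 3 and 0.126 in dwarf 4, above the wild type values of -0.159, -0.121 and -0.086. Dwarf 8, at -0.124, lay among the wild type mice. Its 3' to 5' ratio was 0.0191, against 0.234 in dwarf 3 and 0.303 in dwarf 4, and the part of this ratio was not tested. For complex IV dwarf 8 was at -0.185 beside -0.187 to -0.094 in wild type mice, and for complex V it was the lowest of the 6 at -0.252. The medians over all genes lay between -0.031 and 0.025 on these 6 arrays. Of the markers of Kupffer cells and macrophages at this age, all 7 tested had a dwarf against wild type change below 0 (median -0.69), and 1 was called, Clec4f (-1.16 ± 0.26, adjusted p = 0.0196). Their summed signal over 9 genes was 3342.8 to 4363.5 in dwarf and 5380.1 to 7987.1 in wild type mice. The part of these cells in the member values was not tested.

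Sdhd was the member closest to a call, with 4865.0, 4356.8 and 4158.7 in wild type and 7317.3, 6197.6 and 4959.8 in dwarf mice. Even the lowest dwarf value, that of dwarf 8, was above the wild type mice. The change of 0.45 ± 0.14 did not pass (adjusted p = 0.126), and it did without dwarf 8 (adjusted p = 0.0326). Ndufa7, an accessory subunit of the complex I matrix arm, was similar in size at 0.45 ± 0.16 (adjusted p = 0.173), with 4831.4 to 4937.5 in wild type and 5930.6 to 7134.3 in dwarf mice.

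Sdhb, the iron-sulphur subunit that passes electrons on from Sdha, had 3984.0, 3890.8 and 3944.2 in wild type and 5641.6, 5677.0 and 4254.0 in dwarf mice. The wild type values were close together and dwarf 8 was the nearest to them (0.39 ± 0.15, adjusted p = 0.249). Uqcrc1 had 4580.9 to 4734.6 in wild type and 6802.2, 6458.3 and 4655.2 in dwarf mice, with dwarf 8 again among the wild type values (0.35 ± 0.19, adjusted p = 0.518). Atp5o followed the same order of dwarf mice, with 3175.1, 2716.7 and 1937.4 against 1635.7 to 2250.9 in wild type mice (0.41 ± 0.20, adjusted p = 0.393).

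Cox7a2l went the other way. It had 1618.4, 1662.9 and 1579.6 in wild type and 1323.2, 1270.6 and 1294.3 in dwarf mice, and dwarf 8 was no different from the other dwarf mice. The change of -0.32 ± 0.13 did not pass (adjusted p = 0.296). Sdha, lower in dwarf mice of 6 months, was at 0.31 ± 0.14 here (adjusted p = 0.375).

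Array weights in limma are lower for arrays that stray further from their group means, and they use no separate measure of quality. With these weights, 3 members were called higher at 22 months: Ndufa7 (adjusted p = 0.028), Sdhd (adjusted p = 0.0206) and Sdhb. The share of all genes called with these weights is not given here. Dwarf 8 had the lowest weight of the 6 arrays, 0.885. No member differed more than 1.5-fold, against 13.14% of all genes, again without matching on signal.

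**Figure D3:**
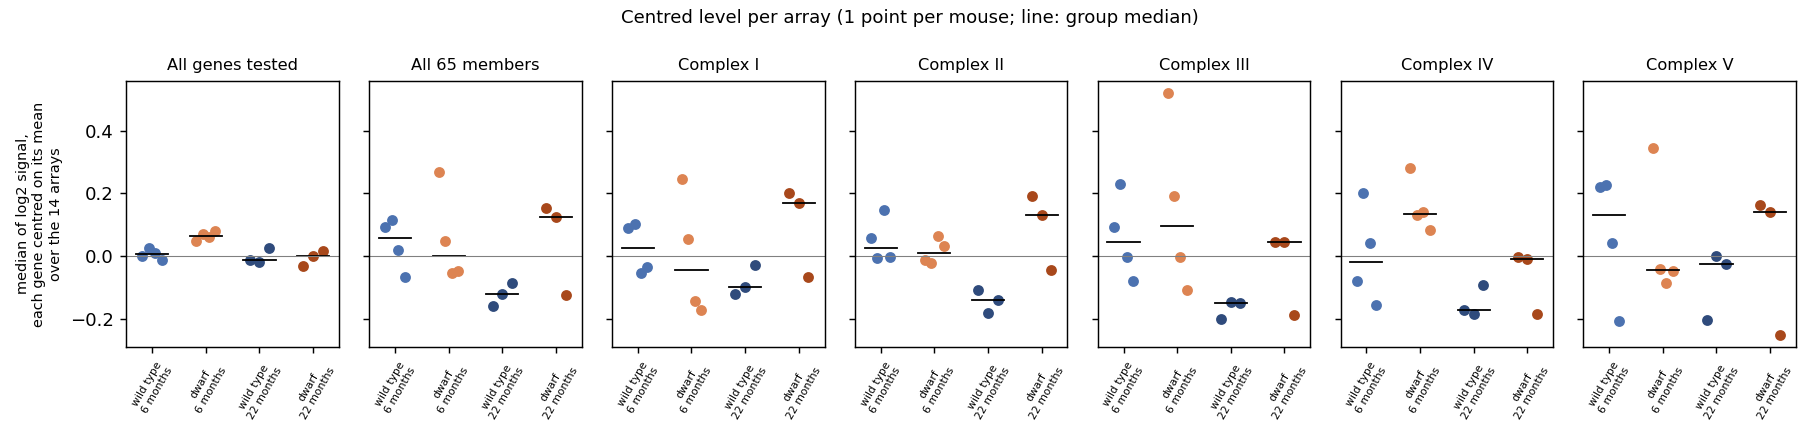
Median over genes of the log2 signal, each gene centred on its mean over the 14 arrays (y axis), for all 5473 genes tested, the 65 members and each complex. Each point is 1 mouse and lines are group medians. Dwarf 83 is the highest point of the members at 0.27, and dwarf 8 lies at -0.124 beside the 22-month wild type mice.

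With age in wild type mice, Ndufa7 and Uqcrc2 fell and no member rose. Uqcrc2, core protein 2 of complex III, was 2.36-fold lower at 22 than at 6 months, and Ndufa7 was 1.62-fold lower. Of all genes tested, 1.41% were called higher and 1.08% lower. The members' median change was -0.11, against -0.02 for all genes, and 19 of 65 (29.23%) were above 0, against 48.11% of all genes. All 6 tested genes of complex II were below 0 (median -0.23), from -0.40 ± 0.13 for Sdhd (adjusted p = 0.125) to -0.03 ± 0.13 for the anchor subunit Sdhc, and none passed.

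Uqcrc2 had 3060.4, 5580.2, 5556.2 and 3396.3 at 6 months and 2195.8, 1721.0 and 1527.4 at 22 months. The 6-month values fell into a lower pair (animals 82 and 88) and a higher pair, and all lay above the 22-month values. The change was -1.24 ± 0.22 (adjusted p = 0.0109), and without animal 24 it did not pass (adjusted p = 0.0513). The probe set has a suffix for sets that may also detect related transcripts.

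Ndufa7 had 8933.0, 9507.8, 7755.5 and 5878.2 at 6 months and 4831.4, 4854.1 and 4937.5 at 22 months. The old mice were nearly equal, and animal 88 was the young mouse nearest to them. The change was -0.69 ± 0.15 (adjusted p = 0.0259). Leaving out any of 1, 2, 24, 82, 84 or 86 ended this call (adjusted p = 0.0586 to 0.0852). Without animal 88, whose 3' to 5' ratio was the lowest of the 14 arrays, 6 members were called lower: Cox6a1, Cox7b, Ndufa3, Ndufa7, Uqcrb and Uqcrc2. Without animal 24 no member was called. How many of all genes were called in these fits is not given here.

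Markers of immune cells also differed with age in wild type mice. All 7 tested Kupffer cell and macrophage markers were above 0 (median 0.68) and 1 was called, Lyz2, with sums of 3608.3 to 6136.4 at 6 months and 5380.1 to 7987.1 at 22 months. Of 6 B and plasma cell markers 3 rose (Ighm, Jchain and Igha), with sums of 1663.3 to 2516.0 and 2649.7 to 3255.9. Of 8 hepatocyte markers 1 rose, Ahsg. Their part in the members' lower median was not tested.

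In dwarf mice 7 members changed with age, 4 higher and 3 lower at 22 months, where 7.95% of all genes were called higher and 8.5% lower. Sdha, Ndufb3, Ndufaf1 and Uqcr11 rose, and Sdhd, Ndufa7 and Uqcrc2 fell. This comparison shares its 4 dwarf mice of 6 months with the comparison at 6 months, so a value that was low in those mice counts in both.

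Sdha went from 897.0, 739.9, 753.8 and 862.8 at 6 months to 1183.4, 1250.1 and 1154.0 at 22 months. The ages did not overlap, and the old dwarf mice lay within the range of the young wild type mice (0.56 ± 0.13, adjusted p = 0.0128; adjusted p = 0.053 without dwarf 4). Ndufb3 went from 1163.7 to 1307.0 at 6 months to 1894.9, 2047.4 and 2170.3, a 1.65-fold rise (0.72 ± 0.13, adjusted p = 0.00299). Ndufaf1 went from 444.2 to 542.5 at 6 months to 889.8, 774.2 and 697.7, a 1.67-fold rise (0.74 ± 0.15, adjusted p = 0.00571). A second tested probe set of Ndufaf1 had the opposite sign here, -0.16 ± 0.40, was at -0.06 ± 0.37 for genotype at 6 months, and passed in neither comparison (adjusted p = 0.806 and 0.933).

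Uqcr11 had 5536.4, 3819.4, 2230.8 and 3371.9 in young dwarf mice and 6866.4, 7313.3 and 5649.1 in old ones. The young values covered a wide range, and the highest, that of dwarf 83, was just below the lowest old value. The rise was 1.85-fold (0.89 ± 0.23, adjusted p = 0.0168), and it was not called without dwarf 3 or dwarf 4 (adjusted p = 0.0651 and 0.0671).

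Sdhd fell from 7837.2 to 9032.3 at 6 months to 7317.3, 6197.6 and 4959.8 at 22 months, with dwarf 8 the lowest (-0.45 ± 0.13, adjusted p = 0.0337; adjusted p = 0.158 without dwarf 8). Its call was also lost without 4, 87 or 89. Ndufa7 fell from 9124.6 to 10495.3 to 7134.3, 7013.9 and 5930.6, with no overlap (-0.53 ± 0.15, adjusted p = 0.0253; adjusted p = 0.1 without dwarf 8). That call was also lost without 3, 4 or 85. Uqcrc2 fell 2.73-fold, from 4160.6, 4482.1, 6775.7 and 5570.6 to 1821.0, 1981.4 and 1863.9 (-1.45 ± 0.22, adjusted p = 0.00137). The old dwarf mice were close together and near the old wild type mice for this gene.

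The number of calls in ageing dwarf mice moved with the arrays used and with the 3' to 5' ratio. Without dwarf 83 it was 15 members, 12 higher and 3 lower. The added ones were Atp5a1, Atp5md, Ndufa8, Ndufb8, Ndufb9, Ndufc1, Ndufv2 and Ndufv3. Calls over all genes without dwarf 83 are not given here, so a gain beyond that of all genes cannot be read from this count. Without dwarf 4 it was 3: Ndufaf1, Ndufb3 and Uqcrc2. With the 3' to 5' ratio as a covariate 1 member, Ndufb3, was called (adjusted p = 0.0497), while Uqcrc2 had an adjusted p of 0.116. With a common median per array, 8 members were higher and 1 lower, and the median of all genes moved from -0.08 to 0.13. Over all genes that scaling gave 716 higher and 176 lower, in place of 435 and 465. Sdhd and Ndufa7 were no longer called (adjusted p = 0.316 and 0.183).

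Cell markers changed in this comparison as well. The hepatocyte genes Alb and Apoa1 (2 of 8 tested), the endothelial gene Stab1 (1 of 4, with 0 of 4 above 0), Col1a2 of stellate cells and fibroblasts (1 of 5) and Cd14 of macrophages (1 of 7) fell. Above 0 were 2 of 8 hepatocyte, 1 of 5 stellate cell and fibroblast and 3 of 7 macrophage markers. Alas2, the erythroid enzyme of haem synthesis (1 of 2 erythroid markers tested), rose by 1.37 ± 0.22 (adjusted p = 0.00161). Summed endothelial signals were 2507.0 to 3051.5 at 6 months and 1855.8 to 1996.3 at 22 months, and erythroid sums over 3 genes overlapped, at 7880.7 to 13601.4 and 8829.7 to 15839.4. Their part in the member changes was not tested.

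By complex, the median change with age in dwarf mice was 0.10 for complex I, 0.01 for complex II, -0.20 for complex III, -0.19 for complex IV and -0.10 for complex V, with -0.08 for all genes. In complex I 18 of 28 genes were above 0, and in complexes IV and V 2 of 11 and 3 of 13, against 43.96% of all genes. Of complex IV none passed, and the lowest p was for Cox7a2, the liver isoform of subunit VIIa, at -0.54 ± 0.18 (adjusted p = 0.0505). Complex V had no call among the probe sets that represent a gene. A second probe set of Atp5g1, for a ring subunit, fell by 1.13 ± 0.29 (adjusted p = 0.0164), and another of Atp5d, for a stalk subunit, fell by 1.00 ± 0.25 (adjusted p = 0.016). The representative sets were at -0.60 ± 0.41 for Atp5g1 and -0.10 ± 0.25 for Atp5d, and neither passed. Further tested sets of Atp5d were above 0, at 0.41 ± 0.29 and 0.21 ± 0.18, and did not pass.

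Sdha was the 1 member whose genotype difference depended on age at the threshold used. The genotype difference went from -0.57 at 6 months to 0.31 at 22 months, an interaction of 0.89 ± 0.19 (adjusted p = 0.0252). In signals, dwarf mice had 813.4 ± 78.3 against 1210.2 ± 119 (SD, n = 4 each) at 6 months, and 1195.8 ± 49.2 against 963.3 ± 85.4 (n = 3 each) at 22 months. Neither age had overlapping groups. This call was lost without any of 2, 24, 3, 4, 8 or 86 (adjusted p = 0.0501 to 0.0755) and with the 3' to 5' ratio as a covariate (adjusted p = 0.056). For the interaction 1.75% of all genes were called higher and 0.585% lower.

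Interactions of similar size did not pass for 3 complex I genes. They were 0.72 ± 0.18 for Ndufb3 (adjusted p = 0.0566), 0.70 ± 0.21 for Ndufaf1 (adjusted p = 0.12) and 0.73 ± 0.26 for Ndufb8, an accessory subunit of the membrane arm (adjusted p = 0.2). Ndufb3 was called beside Sdha with a common median, with no filter, with a filter at the 75th percentile and with array weights. Among the cell markers, Alas2 had an interaction of 1.89 ± 0.31 (adjusted p = 0.00617) and the B cell gene Ighm one of -1.36 ± 0.31 (adjusted p = 0.0339). The interaction was above 0 in 20 of 28 complex I genes (median 0.19) and in 3 of 11 complex IV genes (median -0.10). Over all genes 44.18% were above 0, with a median of -0.07.

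Isoform pairs of complex IV were measured unevenly. The liver isoforms Cox6a1 and Cox7a2 were bright, with 6738.0 to 12685.6 and 4538.4 to 10116.5 over the 14 arrays. Their muscle isoforms Cox6a2 and Cox7a1 did not reach the level for testing: Cox6a2 had 48.0 to 207.1 and Cox7a1 had 23.2 to 249.1. Cox7a1 was highest in the 6-month dwarf mice, at 152.1, 141.5, 249.1 and 171.2, against 42.4 to 91.9 in wild type mice of that age, 23.2 to 98.8 in old wild type mice and 45.4 to 75.7 in old dwarf mice. The filter kept Cox7a1 out of the test used here. With no filter, when 73 members were tested, it was called higher in dwarf mice at 6 months and lower at 22 than at 6 months in dwarf mice. Skeletal muscle markers summed to 986.5 to 2233.6 in the 6-month dwarf mice and to 1253.4 to 1519.9 in the wild type mice of that age.

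Cox8a, the isoform known from most tissues, had 11.6 to 100.9 and lay at the floor on 11 of 14 arrays, so its probe set gives no usable level. Cox8b, known from muscle, had 274.4 to 540.4 from its tested probe set, and a second set, at 9.6 to 88.4, was not tested. Cox4i1 had 276.1 to 316.5 in 3 young wild type mice and 674.8 in animal 84, and its second set differed in sign at 6 months. Cox6b2, known from testis, had 258.1 to 584.4 in its representative set and values below the floor on every array in another.

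Probe sets of the same gene did not always agree in direction. Of 10 members with several tested sets, the sign differed within a gene for 6 at 6 months, 5 at 22 months, 5 for ageing in wild type mice, 6 for ageing in dwarf mice and 5 for the interaction. Some of these changes were near 0, such as -0.09 and 0.01 for Atp5l at 6 months. The same count over all genes is not given here, so these numbers do not set the members apart. In all, 37 of the 100 member probe sets carry a letter suffix, which marks possible detection of other transcripts or a choice of probes under relaxed rules. Besides Cox6a2, Cox7a1 and Cox8a, the untested members were Ndufa12 (38.2 to 174.3), Ndufc2 (66.5 to 183.4), Ndufs4 (17.6 to 164.0), Atp5j2 (74.5 to 179.9) and Cox5a.

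Of the brightest probe set of each complex, that of Sdhd is described above. Uqcrq, a complex III subunit near the ubiquinone site, had changes of 0.14 ± 0.13 and 0.10 ± 0.15 for genotype at 6 and 22 months, and its signal ran from 15159.3 to 25253.3. Atp5l, a membrane subunit of the ATP synthase, had 0.01 ± 0.14 and 0.10 ± 0.16. Neither gene passed in any comparison. Cox6a1, the brightest of complex IV, was at -0.53 ± 0.14 with age in wild type mice (adjusted p = 0.0654). It was called there with quantile normalization, with array weights and with a filter at the 75th percentile.

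Other respiratory and mitochondrial genes were described from lists made with earlier results of these data known. Among 12 tested electron carriers and enzymes that feed ubiquinone, 3 were lower in young dwarf mice: Cycs, which encodes cytochrome c (-0.91 ± 0.17, adjusted p = 0.00229), the glycerol-3-phosphate dehydrogenase Gpd2 (-1.30 ± 0.34, adjusted p = 0.0174) and Coq3, of ubiquinone synthesis (-0.47 ± 0.14, adjusted p = 0.0313). Cycs had 312.1 ± 63.3 in dwarf and 582.1 ± 81.9 in wild type mice of 6 months (SD, n = 4 each), and 505.5 ± 53.0 and 566.5 ± 64.0 at 22 months (n = 3 each). The 3 called lower were 25% of the list, against 7.09% of all genes at 6 months, and the list median there was -0.04. In ageing dwarf mice 4 of the 12 rose (Etfa, Cycs, Coq7 and Coq3) and none fell, with a list median of 0.43 against -0.08 for all genes. Of all genes 7.95% were called higher with age in dwarf mice. With age in wild type mice Coq7 and Dhodh rose, where 1.41% of all genes were called higher. The other genes of the list were not called, 5 of the 12 were above 0, and the list median was -0.03, against -0.02 for all genes.

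Of 15 tested genes of mitochondrial mass and import, 2 were lower in young dwarf mice. Cs, citrate synthase, was at -0.63 ± 0.14 (adjusted p = 0.00607) and Timm23, a channel of protein import, at -0.51 ± 0.12 (adjusted p = 0.0116). The list's median was 0.08, against 0.09 for all genes, and 13.33% was called lower, against 7.09% of all genes. With age in dwarf mice Cs, Timm23 and Tomm40 rose (20%, against 7.95% of all genes) and Immt fell (6.667%, against 8.5%).

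Mitochondrial ribosomal proteins gave 59 tested genes. At 6 months 1 was lower in dwarf mice (Mrpl4, -0.66 ± 0.16, adjusted p = 0.0124), at 22 months 1 was higher (Mrpl50, 0.93 ± 0.22, adjusted p = 0.0246), and with age in dwarf mice 7 rose (11.9%) and none fell, with a median of 0.12. For all genes in that comparison 7.95% were called higher and the median was -0.08. Between genotypes 7.09% of all genes were called lower at 6 months and 1.39% higher at 22 months. With age in wild type mice none of the 59 was called. Of 11 tested assembly factors outside the rule 1 (9.091%, against 7.95% of all genes), Cox16, rose with age in dwarf mice (0.67 ± 0.19, adjusted p = 0.0247).

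Of 9 tested carriers, porins and uncoupling proteins, Slc25a20, the carnitine carrier, was lower in young dwarf mice (-0.50 ± 0.16, adjusted p = 0.0431), rose with age in them (0.52 ± 0.17, adjusted p = 0.0444) and had an interaction of 1.09 ± 0.24 (adjusted p = 0.0281). Slc25a10 rose and Slc25a11 fell with age in dwarf mice. At 6 months 11.11% of this list was called lower, against 7.09% of all genes. With age in dwarf mice 22.22% was called higher and 11.11% lower, against 7.95% and 8.5%. For the interaction 11.11% was called higher, against 1.75%. Of 10 tested regulators of mitochondrial biogenesis, Thra, a thyroid hormone receptor, was higher in young dwarf mice (0.55 ± 0.16, adjusted p = 0.0321) and fell with age in them (-0.56 ± 0.17, adjusted p = 0.0376). This was 1 of 10 (10%) in each comparison. Of all genes 6.3% were called higher at 6 months and 8.5% lower with age in dwarf mice, so these shares were similar. The list medians were 0.02 and -0.12, against 0.09 and -0.08 for all genes.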

How the data were processed

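Liver RNA of 14 mice, 1 per array, was measured on Affymetrix arrays of 12488 probe sets. Per the submitters' processing notes the authors used MAS5, and the deposited values are signal intensities on a linear scale without detection calls. With 2% trimmed at each end the array means were 500.357 to 500.437, so no further scaling was applied. Values below the 25th percentile of all arrays (54.9) were set to it and log2 was taken. Tests covered 7227 probe sets above the median of 184.8 on at least 3 arrays, none of them among the 66 control sets.

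In R 4.3.3, limma 3.58.1 (lmFit, then eBayes with its trend option) was given all 14 arrays and 4 group means. Contrasts were the genotype difference at each age, the age difference in each genotype and the interaction, each adjusted by Benjamini-Hochberg. The labels give each array its own animal number. The fit was checked on simulated data.

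The members, lists and rules were chosen with earlier results of these data known. Members called in any contrast, the brightest member and the member with the lowest p of each complex, the isoform pairs, Sdha and Sdhb were named by rule; others given beside them were picked after their values were seen. Gene names came from the array annotation, and 10 probe sets with several symbols, 1 of them a member's, were left out. Other settings tried were a common median, quantile normalization, another floor, other filters, a pseudocount, no intensity trend, array weights, the 3' to 5' ratio as a covariate, the compared groups alone and each array left out.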

Additional observations from a re-analysis of the deposited data

Results flagged for a closer look

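Of the 25 named members, 50 groups of 4 mice were looked at for a single stray array, and 4 had one; chance gives about 1 in 20. In 6-month dwarf mice animal 83 had 11742.5 for Atp5l (others 8993.9 to 9270.2) and 7523.8 for Uqcrc1 (others 4495.0 to 4706.9). In the same group animal 85 had 542.5 for Ndufaf1 (others 444.2 to 447.2). In 6-month wild type mice animal 84 had 674.8 for Cox4i1 (others 276.1 to 316.5).

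The genotype difference of Sdha itself differed between the ages, with an interaction of 0.89 ± 0.19 (log2; adjusted p = 0.0252 in limma). All 4 dwarf mice were below all wild type mice at 6 months, and all 3 were above all wild type mice at 22 months.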

How the results depend on the processing

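The alternatives were computed for 23 changes of named members (those called and those with the lowest p of a complex), and each of these kept its direction under all alternatives run. Leaving out 1 array at a time gave 3 to 8 called members at 6 months (5 with all arrays), 0 to 1 at 22 months (0), 0 to 6 with age in wild type mice (2), 3 to 15 in ageing dwarf mice (7) and 0 to 1 for the interaction (1). Array weights gave 3, 3, 5, 12 and 2 in that order. Among the alternatives, calls over all genes are given here only for common median scaling and quantile normalization. The 3' to 5' ratio as a covariate gave 3 at 6 months, 1 in ageing dwarf mice and 0 for the interaction. Fits of the compared groups alone gave 2 at 6 months and 1 in ageing wild type mice. Without an intensity trend there was 1 with age in wild type mice and 0 for the interaction. Quantile normalization gave 11 with age in dwarf mice, where 477 of all genes were higher and 394 lower. The interaction gave 2 with a common median, no filter or a filter at the 75th percentile. Common median scaling moved the members' median from 0.04 to -0.15 at 6 months, from -0.07 to 0.13 in ageing dwarf mice and from 0.09 to 0.29 for the interaction, and the 3' to 5' covariate moved it to 0.21 with age in dwarf mice. Common median scaling multiplies each array by a single factor, so it lowers arrays of high median. Those of the 6-month dwarf mice were 186.85 to 221.05, against 174.85 to 183.2 in wild type mice of that age. Why these medians differed, and the cause of the shift with the 3' to 5' covariate, were not tested. No paired analysis was possible because the groups share no animal numbers. The floor of 54.9 limits what dim probe sets such as Cox8a can show.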
